A study of Mus musculus with 238 samples.

Results

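The genes described here are 10 genes that mark disease-associated microglia: Trem2, Tyrobp, Cst7, Lpl, Itgax, Clec7a, Cd68, Ctss, Lgals3 and Cd52. They were chosen by name, and 9 of the 10 matched a row among the 21076 gene rows of the count table; Clec7a was not analysed here. RNA of 15 brain regions was sequenced from C57BL/6JN mice that were all 19 months old. In the diet experiment, 5 females were dietary restricted (aDR) and 4 were fed freely (AL), which gave 131 brain libraries and 9 of liver. In the plasma experiment, 3 males received young mouse plasma (YMP) and 4 received PBS, both by retro-orbital injection, which gave 98 brain libraries. Sex and experiment are the same split, so they cannot be told apart. The questions were whether these genes were higher in white matter (corpus callosum) than in grey matter, and whether either treatment moved them.

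Disease-associated microglia are a state that microglia, the resident macrophages of the brain, take up around amyloid plaques, degenerating neurons and ageing white matter. Trem2 is a surface receptor for lipids and lipoproteins, and Tyrobp (DAP12) is the adaptor that carries its signal into the cell. Entry into the later stage of the state depends on Trem2. In the state as a whole, microglia raise genes of phagocytosis, lysosomes and lipid handling, while genes of resting microglia fall. Among the other members, Cst7 encodes cystatin F, an inhibitor of lysosomal cysteine proteases, and Ctss encodes cathepsin S, one such protease. Cd68 is a lysosomal membrane protein, Lpl is lipoprotein lipase, Itgax is the integrin subunit CD11c, Lgals3 is the lectin galectin-3 and Cd52 is a small anchored surface glycoprotein of leukocytes.

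Promoter windows of 300 bases (RefSeq, GRCm38.p6) were found for 6 of the 9 genes: Trem2, Cst7, Itgax, Cd68, Ctss and Lgals3. They were searched on both strands for GAGGAAG (core of the site of PU.1, the factor that defines macrophages), TGANTCA (AP-1) and TCACGTG (the E-box of the MiT/TFE factors of lysosomal genes). The AP-1 letters stood in the windows of Cst7, Itgax, Cd68 and Trem2, against 7.93% of all 27025 promoters. The PU.1 letters stood in those of Trem2 and Ctss, against 13.5% of all promoters. The E-box was in none of the 6, against 3.84% of all. The 90 bases around the start of the 5 genes with a match are shown, 80 before it and 10 from it, 5′ to 3′, with the matches in capitals (TGANTCA or, for PU.1, the reverse strand CTTCCTC). Cd68 had a second AP-1 match farther upstream. A match is a description of the letters only.
Trem2, chr17:48346321-48346410 (+ strand): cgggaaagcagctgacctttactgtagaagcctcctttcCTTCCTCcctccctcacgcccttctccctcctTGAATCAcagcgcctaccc
Cst7, chr2:150570335-150570424 (+ strand): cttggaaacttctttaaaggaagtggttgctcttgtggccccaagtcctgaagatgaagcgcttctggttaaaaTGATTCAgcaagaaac
Itgax, chr7:128129470-128129559 (+ strand): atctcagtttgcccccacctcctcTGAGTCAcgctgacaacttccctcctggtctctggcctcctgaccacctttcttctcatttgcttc
Cd68, chr11:69666161-69666250 (- strand): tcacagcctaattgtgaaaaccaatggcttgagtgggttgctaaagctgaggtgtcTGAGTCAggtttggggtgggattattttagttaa
Ctss, chr3:95526706-95526795 (+ strand): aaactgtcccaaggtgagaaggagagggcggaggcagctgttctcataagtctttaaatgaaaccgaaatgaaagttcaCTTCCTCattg

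Library totals ran from 605614 to 32410417 counts with a median of 8444258. Levels are CPM, counts scaled to library size, on the TMM scale for brain and without TMM factors for liver. In these bulk samples fewer cells and less RNA per cell cannot be told apart. Some libraries stood apart or went against their labels. Of the 12 libraries labelled corpus callosum, 8 held over 100 CPM of Ttr, the transthyretin transcript of choroid plexus epithelium, with 4 low ones in AL mouse 63, aDR mouse 67 and YMP mice 77 and 81. All 12 also held between 1885 and 4317 CPM of the neuronal gene Snap25. In the pons library of aDR mouse 67, the 10 most abundant genes took 23.4% of counts and the 9 myelin genes summed to 7560 CPM, against at least 24747 CPM in every other pons library of a female.

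Across the brain of control mice the genes divided into abundant and scarce ones. Set against gene length (merged exons, GENCODE M21), Ctss had the highest level in corpus callosum of AL mice at 103 CPM per kb, followed by Tyrobp at 36.7 and Cd68 at 19.4. Lpl, Cd52, Trem2, Cst7 and Lgals3 lay between 3.79 and 5.40 CPM per kb, and Itgax was at 0.329. In motor cortex of the same mice Ctss and Tyrobp led too, at 48.9 and 22.4 CPM per kb, and Cst7, Lgals3 and Itgax again came last, at 0.480, 0.119 and 0.0238 CPM per kb. The order changed in the middle, where Trem2 (2.39) came before Cd52 (1.54) and Lpl (1.38).

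The receptor pair varied modestly between regions. Trem2 (chromosome 17, 48346401 to 48354147, GRCm38) was highest in caudate putamen in both experiments, at 24.9 ± 5.76 CPM (SD, n = 4) in AL and 27.4 ± 4.22 CPM (SD, n = 4) in PBS mice. It was lowest in entorhinal cortex of AL mice, at 8.95 ± 3.27 CPM (SD, n = 3), and in visual cortex of PBS mice, at 10.4 ± 0.971 CPM (SD, n = 3). The fall from first to last was 2.78-fold and 2.63-fold. Between neighbours in the order of 15 regions, the gap exceeded the larger of the 2 SDs in 0 of 14 pairs in AL and 1 of 14 in PBS mice. Tyrobp (chromosome 7, 30413760 to 30417585) was highest in medulla, at 38.2 ± 11.7 CPM (SD, n = 4) in AL and 31.2 ± 9.91 CPM (SD, n = 4) in PBS mice, and lowest in visual cortex in both.

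The lysosomal genes followed a similar order. Ctss (chromosome 3, 95526786 to 95556403) was highest in medulla, with 171 ± 22.6 CPM (SD, n = 4) in AL and 183 ± 41.6 CPM (SD, n = 4) in PBS mice, and its lowest regional means were 64.4 and 62.3 CPM. Cd68 (chromosome 11, 69664213 to 69666153) was highest in caudate putamen, at 28.4 ± 4.84 CPM (SD, n = 4) in AL and 27.5 ± 3.82 CPM (SD, n = 4) in PBS mice, 3.00-fold and 3.01-fold over the lowest region. Cst7 (chromosome 2, 150570415 to 150578944) spanned far more. It was highest in medulla, at 7.43 ± 2.40 CPM (SD, n = 4) in AL and 7.58 ± 1.76 CPM (SD, n = 4) in PBS mice, and lowest in entorhinal cortex, at 0.287 ± 0.332 CPM (SD, n = 3) and 0.473 ± 0.408 CPM (SD, n = 4).

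Among the surface and secreted members, Itgax and Lgals3 were nearly absent from cortex. Itgax (chromosome 7, 128129547 to 128150657) was highest in medulla, at 3.40 ± 1.45 CPM (SD, n = 4) in AL and 2.69 ± 0.902 CPM (SD, n = 4) in PBS mice, and all 4 AL libraries of visual cortex had 0 counts. Lgals3 (chromosome 14, 47367751 to 47386160) averaged 24.5 CPM in medulla of AL mice, but 1 library made this mean. The 4 values were 5.32, 7.75, 17.7 and 67.1 CPM, the last in AL mouse 69. In cerebellum the means were 17.8 ± 6.84 CPM (SD, n = 4) in AL and 16.8 ± 6.96 CPM (SD, n = 3) in PBS mice. In motor cortex they were 0.222 ± 0.282 CPM (SD, n = 4) and 0.542 ± 0.292 CPM (SD, n = 4). Cd52 (chromosome 4, 134082448 to 134095082) was highest in medulla, at 9.29 ± 1.96 CPM (SD, n = 4) in AL and 8.04 ± 2.68 CPM (SD, n = 4) in PBS mice, and its lowest regional means were 1.32 and 1.23 CPM.

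Lpl had an order of its own. It was highest in caudate putamen, at 83.8 ± 15.5 CPM (SD, n = 4) in AL and 72.9 ± 16.5 CPM (SD, n = 4) in PBS mice, beyond the SDs of the next region in each. Corpus callosum and choroid plexus came next in both, and olfactory bulb was last, at 1.97 ± 0.545 CPM (SD, n = 4) and 1.64 ± 0.277 CPM (SD, n = 4). Cerebellum, where Lgals3 was at or near its highest, held only 8.46 ± 3.22 CPM (SD, n = 4) and 8.11 ± 4.00 CPM (SD, n = 3) of Lpl. Lpl (chromosome 8, 68880491 to 68907448) is also made by neurons and other brain cells.

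**Figure D1:**
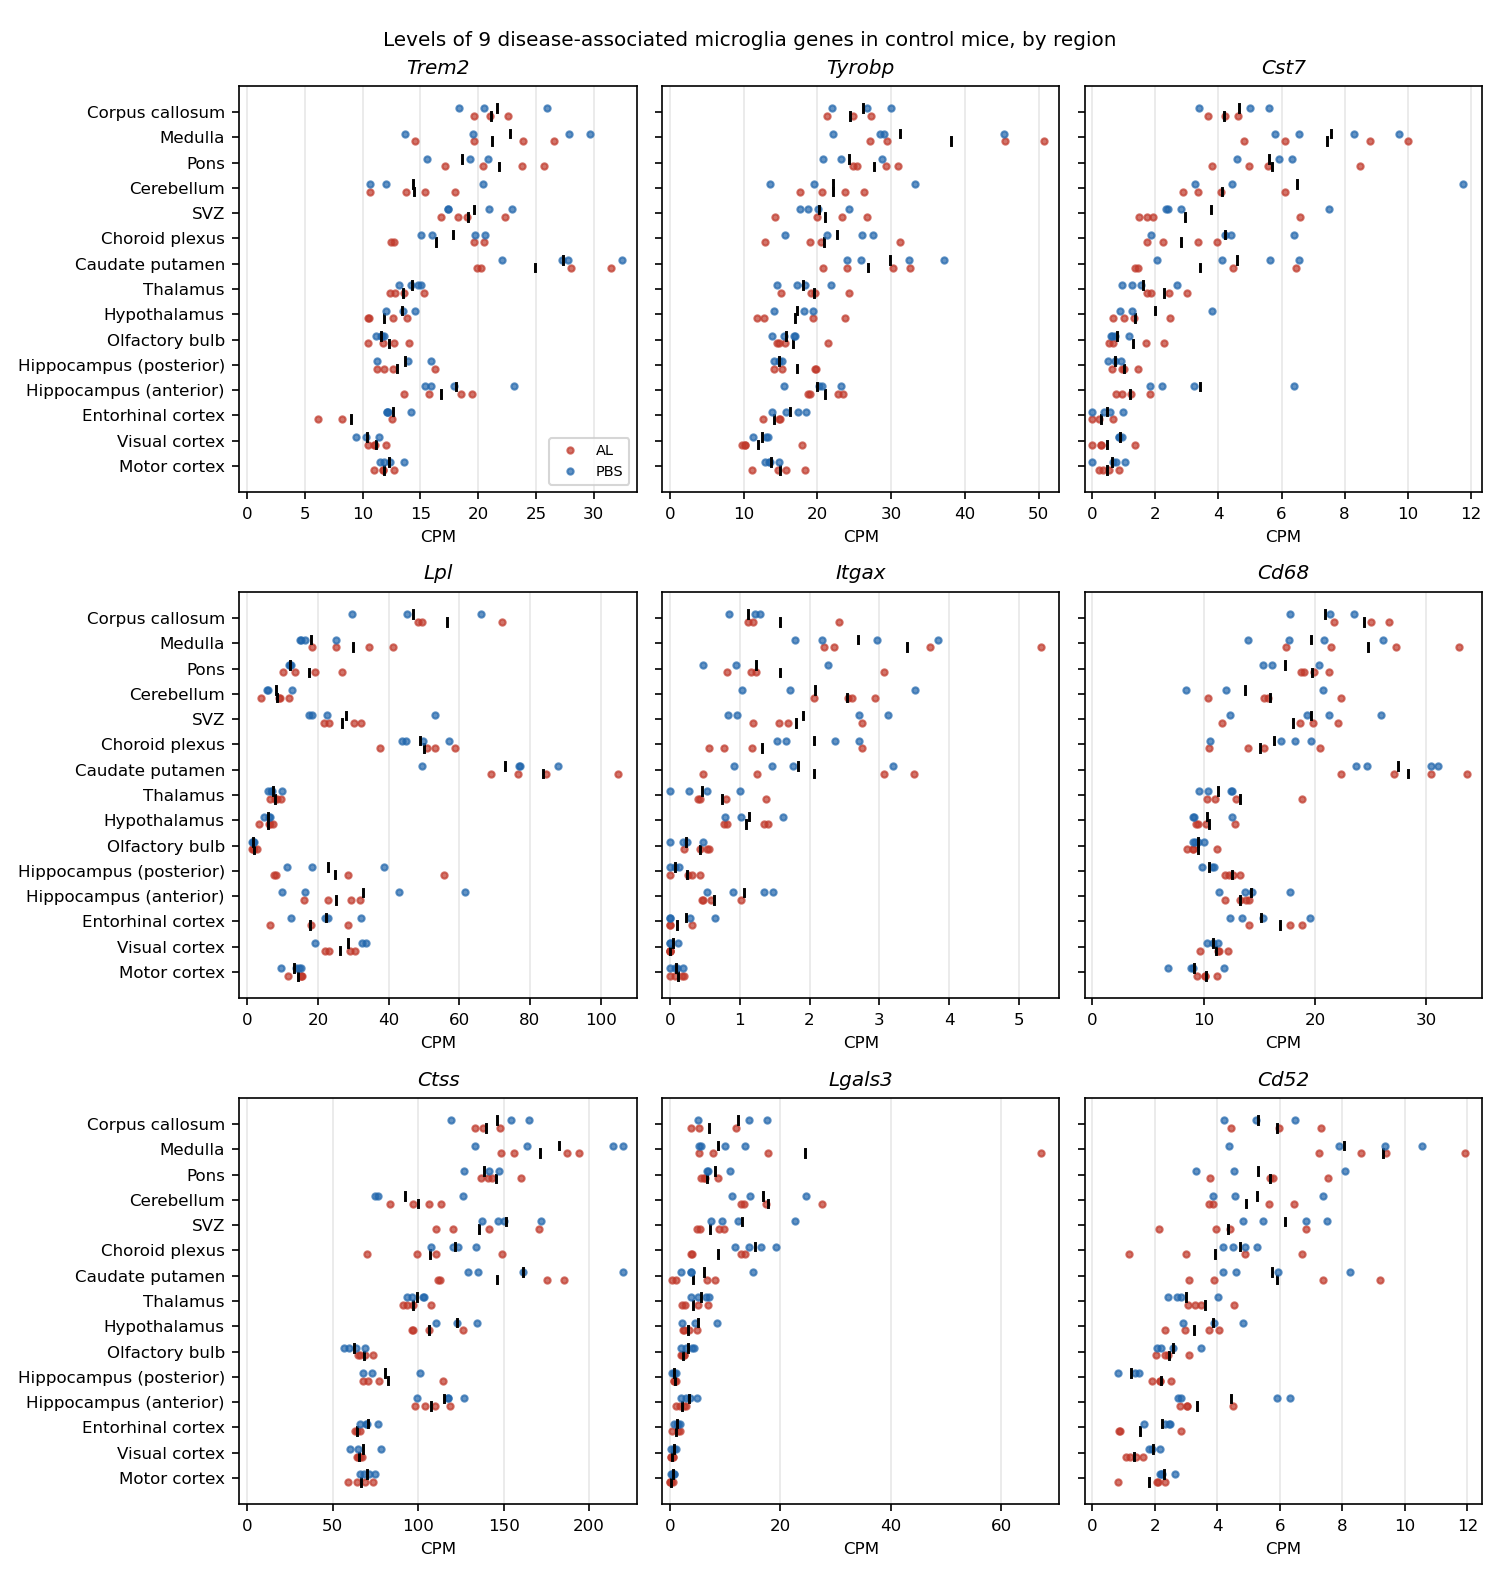
Levels (CPM, linear axes from 0) of the 9 genes in each library of the AL females and PBS males, by region; short black lines are group means. Cst7, Itgax and Lgals3 lie near 0 in the 3 cortical regions and rise towards the hindbrain, while Lpl peaks in caudate putamen at 83.8 CPM (AL) and 72.9 CPM (PBS).

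Over the 15 regional means of control mice (log2 CPM), 28 pairs of members without Lpl had Pearson correlations of 0.544 to 0.958, with a median of 0.867. The 8 pairs with Lpl ran from 0.0929 to 0.707, with a median of 0.345. With the summed level of 9 myelin genes, the correlation was 0.939 for Ctss, 0.918 for Cst7, 0.918 for Cd52, 0.914 for Trem2, 0.899 for Tyrobp, 0.841 for Itgax, 0.776 for Lgals3, 0.701 for Cd68 and 0.388 for Lpl. With the summed level of 17 genes of homeostatic microglia, it was 0.793 for Trem2, 0.735 for Cd68, 0.676 for Ctss, 0.629 for Lpl, 0.608 for Tyrobp, 0.487 for Cd52, 0.396 for Cst7, 0.370 for Itgax and 0.210 for Lgals3. It was thus higher than that with myelin for Lpl and Cd68 and lower for the other 7. These are descriptions over 15 regions taken from the same mice and libraries.

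Among 14238 other genes of at least 1 CPM, the closest to Cst7 in this regional pattern were Klk6 (r = 0.975), a myelin-associated serine protease, Tfeb (0.974), a regulator of lysosomal genes, and Zcchc24 (0.968). Those closest to Itgax were the chemokine Ccl3 (0.959), Cd84 (0.946) and the chemokine Ccl4 (0.939). Ccl3 (0.966), the phagosomal metal transporter Slc11a1 (0.966) and Ccl4 (0.961) were closest to Cd52. Ctss went with the myeloid genes Myo1f (0.975), Itgb2 (0.973) and Slc11a1 (0.967), and Tyrobp with S100a16 (0.960), Cd84 (0.955) and C1qa (0.955). Trem2 was closest to Gfm2 (0.973), Enpp4 (0.966) and Frmd4b (0.964). The closest to Lgals3 were Sqor (0.960), Echdc3 (0.952) and Rhbdd1 (0.952), those to Cd68 were Kyat3 (0.914), Nhej1 (0.912) and Sft2d1 (0.910), and those to Lpl were Agfg2 (0.908), Klhl2 (0.894) and Bpnt1 (0.893).

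In corpus callosum all 9 genes were higher than in the mean of grey matter, in females and in males alike. Grey matter was the mean of 9 regions (motor, visual and entorhinal cortex, anterior and posterior hippocampus, caudate putamen, hypothalamus, thalamus and olfactory bulb) of the same mice. The effect was tested with edgeR's quasi-likelihood test with the mouse as a block, over 7 mice of the diet and 5 of the plasma experiment. A gene counts as called at a Benjamini-Hochberg adjusted p under 0.05. The tissue difference itself was broad: 33.0% of 14856 genes were called higher in the diet and 27.5% of 14947 in the plasma experiment. The median log2 difference of the 9 members was 1.13 and 1.16, against 0.01 and -0.03 over all genes. Single grey regions were not all lower. In control mice of both experiments, mean levels of Trem2, Tyrobp, Lpl, Itgax, Cd68 and Ctss were higher in caudate putamen than in corpus callosum. For Trem2 they were 24.9 against 21.1 CPM in AL and 27.4 against 21.6 CPM in PBS mice. Cst7 and Lgals3 were higher in corpus callosum in both experiments, and Cd52 only in AL mice.

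The largest differences were those of Lgals3, Cst7, Itgax and Lpl. Lgals3 was 2.10 ± 0.28 higher (log2, SE; adjusted p = 3.28e-09) in females and 2.03 ± 0.31 higher (adjusted p = 5.0e-07) in males. In single corpus callosum libraries of the diet experiment, Lgals3 was at 5.33, 11.97 and 3.83 CPM in AL mice 63, 66 and 69 and at 11.2, 7.71, 7.26 and 10.2 CPM in aDR mice 61, 62, 65 and 67. In the plasma experiment it was at 17.5, 14.3 and 5.06 CPM in PBS mice 76, 80 and 84 and at 5.23 and 6.14 CPM in YMP mice 77 and 81. These values lay above every motor cortex library of either experiment, the highest of which held 1.14 CPM. Ttr in the same order of libraries was at 34.5, 10706, 1085, 10897, 5715, 4211 and 0.597 CPM, then 17719, 12824, 4870, 0 and 2.58 CPM, so the 4 libraries with most Ttr were also the 4 with most Lgals3; the part of choroid plexus RNA in this was not tested beyond the mice with little Ttr below.

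Cst7 was 1.86 ± 0.29 higher (log2, SE; adjusted p = 2.08e-07) in females and 2.12 ± 0.27 higher (adjusted p = 1.09e-08) in males. Its corpus callosum values were 4.21, 4.62 and 3.66 CPM in AL mice, 2.43, 3.27, 2.04 and 12.4 CPM in aDR mice, 5.60, 5.00 and 3.37 CPM in PBS mice and 2.90 and 5.52 CPM in YMP mice. One library, that of aDR mouse 67, was far above the others. Itgax was 2.0 ± 0.33 (adjusted p = 4.05e-07) and 2.03 ± 0.44 (adjusted p = 0.000135) higher on the log2 scale. Its callosal level stayed low, from 0.511 CPM in aDR mouse 65 to 6.21 CPM in aDR mouse 67. Lpl was 1.99 ± 0.17 (adjusted p = 5.59e-16) and 1.48 ± 0.24 (adjusted p = 1.73e-06) higher.

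Trem2, Tyrobp, Cd68 and Ctss were higher by less than 1 on the log2 scale. Trem2 was 0.79 ± 0.10 (adjusted p = 1.89e-10) and 0.75 ± 0.10 (adjusted p = 3.4e-08) higher in females and males. Its adaptor Tyrobp was 0.58 ± 0.11 (adjusted p = 1.06e-05) and 0.68 ± 0.10 (adjusted p = 2.76e-07) higher. Cd68 was 0.88 ± 0.09 and 0.98 ± 0.09 higher, and Ctss 0.75 ± 0.08 and 0.87 ± 0.08. Cd52 lay between the 2 sets, at 1.13 ± 0.18 and 1.16 ± 0.21. Mouse by mouse, the callosal value minus that of grey matter was above 0 for every member in 7 of 7 females and 5 of 5 males. The lowest of these was 0.19, for Itgax in aDR mouse 65, and the highest 3.22, for Lgals3 in AL mouse 66.

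**Figure D2:**
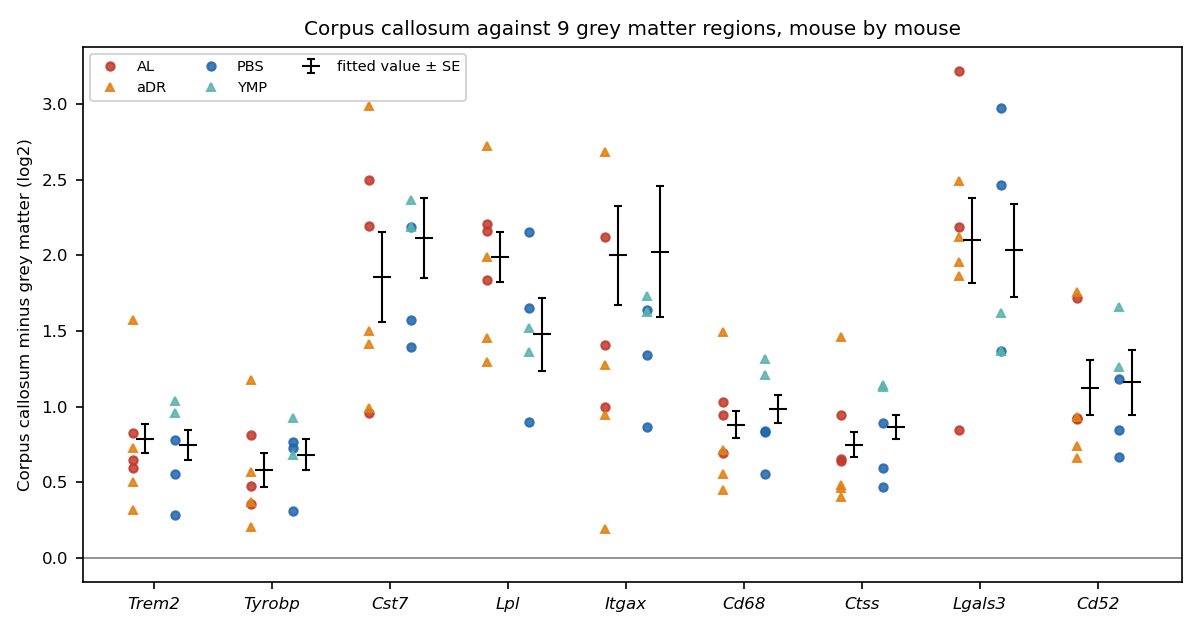
Difference between corpus callosum and the mean of 9 grey matter regions (log2) for each mouse and gene (points, by treatment; 7 females left, 5 males right in each pair), with the fitted value and its SE in black. Every point lies above 0; aDR mouse 67 is the highest female for Trem2 (1.57), Cst7 (2.99) and Itgax (2.68).

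A comparison added after the data were seen kept the mice whose callosal library held at most 100 CPM of Ttr (AL 63 and aDR 67, YMP 77 and 81), and 9 of 9 members were called higher in each experiment, against 20.3% of all genes in females and 20% in males. Cst7 then stood at 3.21 and 2.74, Trem2 at 1.31 and 1.018, Itgax at 3.43 and 2.65, and Lgals3 at 2.09 and 1.51 on the log2 scale. The values of females rested in part on aDR mouse 67, which stood apart. Its own difference was 1.57 for Trem2 and 2.68 for Itgax, against 0.82 and 1.41 in AL mouse 63. Both males had received YMP, so low Ttr and treatment cannot be told apart there. With motor cortex as the only grey matter, 8 of the 8 members that could be tested were called higher in each experiment (33.1% and 29.7% of all genes) and Itgax was below the filter on low counts. Without aDR mouse 67, 9 of 9 remained called higher in the diet experiment (30.2% of all genes).

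The wider gene lists moved in corpus callosum as follows. In the main fits of this region 33.0% of all genes in females and 27.5% in males were called higher. No such share is given for genes called lower. Of 30 other disease-associated microglia genes, 20 were higher and 4 lower in females (median 0.61) and 19 higher and 3 lower in males (median 0.62). Those with the smallest p were Cd9, a tetraspanin that oligodendrocytes also make (1.56 ± 0.09 and 1.67 ± 0.11, log2 and SE), the protease Ctsz (1.01 ± 0.07 and 1.03 ± 0.07) and the ferritin chain Fth1 (1.34 ± 0.10 and 1.43 ± 0.10). The list did not move as a block: the growth factor Igf1 fell by 1.35 and 1.39 and Cd83 fell by 1.17 and 1.03. The secreted protein Spp1 was at -0.27 ± 0.28 (edgeR, adjusted p = 0.416) and -0.70 ± 0.40 (adjusted p = 0.135). Igf1, Cd83 and Spp1 are named after their values were seen. Of 11 tested genes of TREM2 signalling, 6 were higher and 2 lower in females and 7 higher and 2 lower in males. Among them were the shedding protease Adam17 (0.59 ± 0.07 and 0.75 ± 0.07), the phosphatase Inpp5d (0.62 ± 0.08 and 0.45 ± 0.09), Lat2 (1.01 ± 0.15 and 0.74 ± 0.18) and, lower, the adaptor Grb2 (-0.18 ± 0.03 and -0.23 ± 0.04). Of 9 tested partners of Lpl in lipid handling, 6 were higher and 2 lower in each experiment, among them Lmf1, needed for folding of the lipase (0.38 ± 0.05 and 0.43 ± 0.07), the cholesterol exporter Abcg1 (0.32 ± 0.07 and 0.36 ± 0.06), and, lower, the lipase inhibitor Angptl4 (-0.97 ± 0.16 and -0.88 ± 0.24) and the lipoprotein receptor Lrp1 (-0.20 ± 0.05 and -0.34 ± 0.05).

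Markers of cells were compared in the same fit, in which 33.0% (females) and 27.5% (males) of all genes were called higher. Homeostatic microglia genes were higher in 17 of 17 in females (median 0.53) and in 14 of 17 in males (median 0.42). Gpr34 was 0.56 log2 and Selplg 0.53 log2 higher in females, and Aif1 0.94 log2 and C1qc 0.72 log2 higher in males. The median of the 9 members, 1.13 and 1.16, was thus above that of these genes in both experiments; the difference between the lists was not tested. Of 10 border macrophage genes 1 was higher in each experiment, Cd163, and 6 and 4 were lower. Lyve1 was at 0 counts in 5 of 7 and 4 of 5 callosal libraries, and Mrc1 in 1 of 7 and 0 of 5. Cd163, Ms4a7, F13a1, Stab1 and Maf had counts in every callosal library. Of the monocyte and neutrophil genes, 0 of 3 tested were higher in females, and in males 0 of 4 were higher and 2 lower. Of the lymphocyte genes only Trbc2 passed the filter on low counts, and it was higher in both experiments (3.76 and 3.25). Callosal libraries at 0 counts were 6 of 7 and 5 of 5 for Cd3d, 2 and 2 for Cd3e and 4 and 2 for Cd8a. They were 1 and 1 for Nkg7, 2 and 4 for Cd79a and 4 and 4 for Ms4a1. All 9 myelin genes (median 1.98 and 2.19) and all 10 choroid plexus genes (median 6.25 and 5.77) were higher. Of 6 neuron genes, 3 were higher and 1 lower in females (median 0.25), and 1 higher and 2 lower in males (median 0.01). Of 5 astrocyte genes, 2 were higher and 3 lower in females, and 1 higher and 1 lower in males. Of 4 endothelial genes, 0 were higher in either experiment, with 2 lower in females and 0 in males. The part of these cells in the members' differences was not tested.

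The members were also high in the hindbrain and beside the ventricle. Against grey matter, 9 of 9 were called higher in medulla and in SVZ in females, where 37.5% and 31.5% of all genes were, and 8 of 9 in males, where 36.1% and 28.9% were. The exceptions in males were Lpl in medulla (0.22 ± 0.24, adjusted p = 0.406) and Tyrobp in SVZ (0.15 ± 0.09, adjusted p = 0.136). In pons the counts were 9 and 8 of 9 (37.8% and 33.5% of all genes). Lpl in pons of females, at 1.04 ± 0.26 (edgeR, adjusted p = 0.000381), rested on the library of aDR mouse 67 that stood apart. Without that mouse it was 0.10 ± 0.19 (adjusted p = 0.664), and the other 8 members kept their calls (35.7% of all genes were then called higher), from 0.69 for Tyrobp and Cd68 to 2.51 for Cst7. In males Lpl in pons was -0.45 ± 0.30 (adjusted p = 0.189). In SVZ all 10 choroid plexus genes were called higher too (median 5.77 in females and 5.57 in males). Their part in the members' values there was not tested.

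In cerebellum the set split. Lgals3 was 3.13 ± 0.23 and 3.09 ± 0.20 higher (log2, SE) than in grey matter, Cst7 1.84 ± 0.25 and 2.59 ± 0.25, Itgax 2.14 ± 0.29 and 2.86 ± 0.32, and Cd52 and Tyrobp were also called higher, with Ctss in males. Lpl was lower, by -1.03 ± 0.24 (edgeR, adjusted p = 0.000105) and -0.99 ± 0.29 (adjusted p = 0.00208). Trem2 (0.05 and 0.13) and Cd68 (0.10 and 0.17) were not called. The background was high, with 37.7% of genes called higher and 38.9% lower in females and 37.3% and 37.0% in males. In libraries labelled choroid plexus, 5 of 9 members were called higher in females (27.3% of all genes) and 9 of 9 in males (26.0%). All 9 myelin genes were called higher there too (median 0.90 and 1.35). The 10 choroid plexus genes summed to a median of 3775 CPM in AL and 10271 CPM in PBS libraries with this label. In corpus callosum the medians were 1240 CPM in AL and 13791 CPM in PBS libraries, so these labels do not mark pure tissue.

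**Figure D3:**
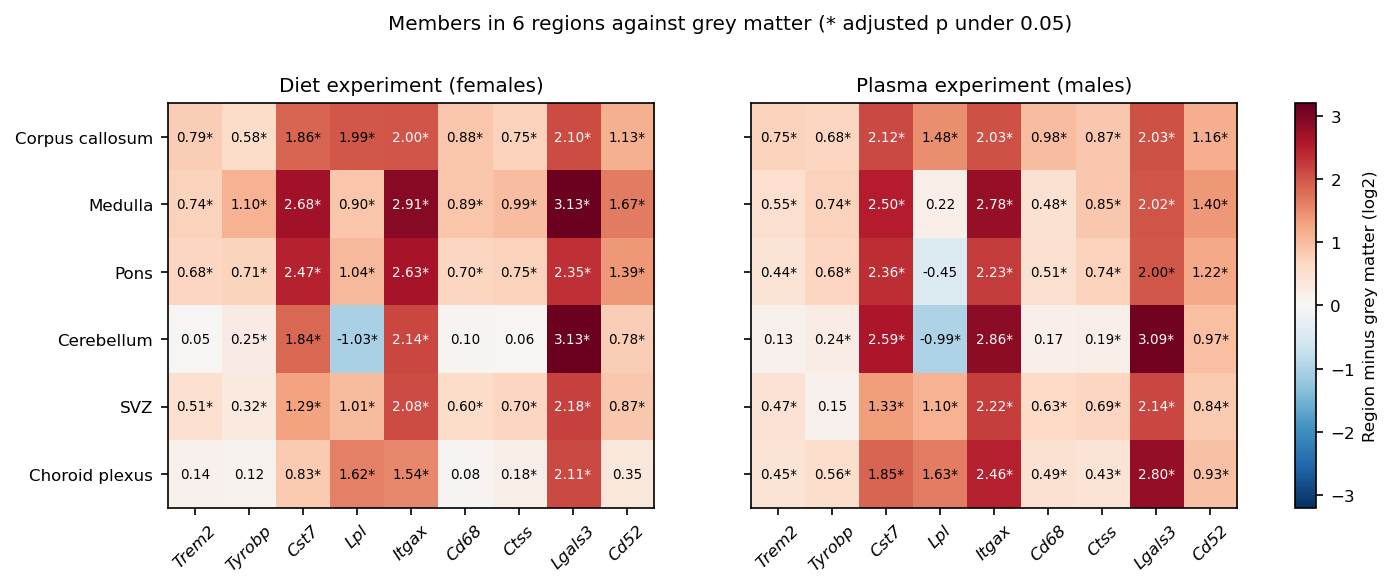
Log2 difference of each of 6 regions from grey matter for the 9 genes, females left and males right; an asterisk marks an adjusted p under 0.05. Lgals3, Cst7 and Itgax are called higher in all 6 regions of both panels, while Lpl is lower in cerebellum (-1.03 and -0.99), and the Lpl value in pons of females (1.04) falls to 0.10 without aDR mouse 67.

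Dietary restriction was called for 1 member in 1 region. Each region was fitted alone with edgeR, which gave 120 tests of a member, against 0.0525% of all 205693 tests called. The gene called was Lpl in motor cortex, at -0.60 ± 0.11 (log2, SE; adjusted p = 0.0185). Its level was 15.4, 11.5, 15.6 and 15.3 CPM in AL mice and 9.54, 9.49, 10.1, 9.12 and 9.78 CPM in aDR mice. All aDR values lay within a narrow band. The size varied little when single mice were left out (-0.67 to -0.57), but the call did not hold without mouse 62 (adjusted p = 0.054), 63 (0.0637), 67 (0.0703), 68 (0.141) or 69 (0.0808). In visual cortex Lpl was at -0.34 ± 0.14 (adjusted p = 0.418). DESeq2 gave -0.60 in motor cortex (adjusted p = 0.00762), and it called 0.262% of all tests over the 15 regions.

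Elsewhere 0 of the diet differences of a member were called. An unadjusted p under 0.05 was reached in 6 of 120 tests, against 6.24% of all tests, and leaving out 1 mouse raised this to 16 (mouse 67), 12 (mouse 69) or 10 (mouse 65). In corpus callosum Cst7 was at 0.35 ± 0.63, Trem2 at 0.19 ± 0.27 and Lgals3 at 0.41 ± 0.38 (log2, SE). In pons Lpl was at 1.76 ± 0.94, Itgax at 1.63 ± 0.67 and Lgals3 at 1.017 ± 0.37, and without aDR mouse 67 they were at -0.07 ± 0.27, 0.85 ± 0.42 and 0.64 ± 0.23. That library held 221 CPM of Lpl, against 14.3 to 18.6 CPM in the other 4 aDR mice. With 1 value per mouse over all regions (limma), 0 of 9 members were called, against 0.922% of 15616 genes, and 0 had an unadjusted p under 0.05, against 16.1% of all genes. Voom with the mouse as a block also called 0. The largest was Lgals3, at 0.29 ± 0.17 (adjusted p = 0.453). The others were Cd52 at 0.17 ± 0.13, Itgax at 0.15 ± 0.20, Lpl at 0.03 ± 0.10, Cd68 at -0.0013 ± 0.09, Trem2 at -0.0048 ± 0.05, Ctss at -0.01 ± 0.05, Cst7 at -0.02 ± 0.23 and Tyrobp at -0.09 ± 0.09. Several of these change sign with the setting. Of the 30 other disease-associated microglia genes 20 lay above 0 and 0 were called, and of 17 homeostatic genes 1 lay above 0 and 1 was called.

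Several members had lower values in YMP than in PBS mice, and the calls over all mice depended on the tool: edgeR and limma called 0 members, DESeq2 called 2 within a region and voom 1 over all regions. Over 119 tests of a member within a region, 0 were called by edgeR (0.0127% of 205500 tests) and 21 had an unadjusted p under 0.05, against 6.11% of all tests. The DESeq2 calls, against 0.463% of all its tests, were Cst7 in caudate putamen (adjusted p = 0.0387) and Lgals3 in SVZ (adjusted p = 0.0215). Of the 21, 20 were lower and 14 came from caudate putamen, medulla and SVZ. The regions come from the same 7 mice, so these tests are not independent.

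In caudate putamen, Cst7 was at 4.10, 6.55, 5.63 and 2.04 CPM in PBS mice 72, 76, 80 and 84 and at 0.690, 1.04 and 1.46 CPM in YMP mice 73, 77 and 81. The log2 difference of Cst7 was -2.0 ± 0.47 (edgeR, adjusted p = 0.474). Lgals3 was at 3.78, 15.1, 3.86 and 2.04 CPM in PBS mice and at 1.03, 2.59 and 1.33 CPM in YMP mice, so the groups overlapped and 1 PBS library was far above the rest. Cd52 ran from 4.18 to 8.23 CPM in PBS and from 2.33 to 3.19 CPM in YMP mice, and Trem2 from 22.1 to 32.4 CPM and from 17.1 to 21.5 CPM. The summed level of the 9 myelin genes moved with them, at 16593 to 39322 CPM in PBS and 10677 to 16878 CPM in YMP mice. So did that of the 5 astrocyte genes, at 1166 to 2461 CPM and 851 to 1021 CPM, without overlap. The 17 homeostatic microglia genes summed to 1019 to 1407 CPM in PBS and 954 to 1039 CPM in YMP mice. The PBS library highest in Lgals3, that of mouse 76, also had the most myelin RNA and 3300 CPM of Ttr. The part of these in the result was not tested.

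**Figure D4:**
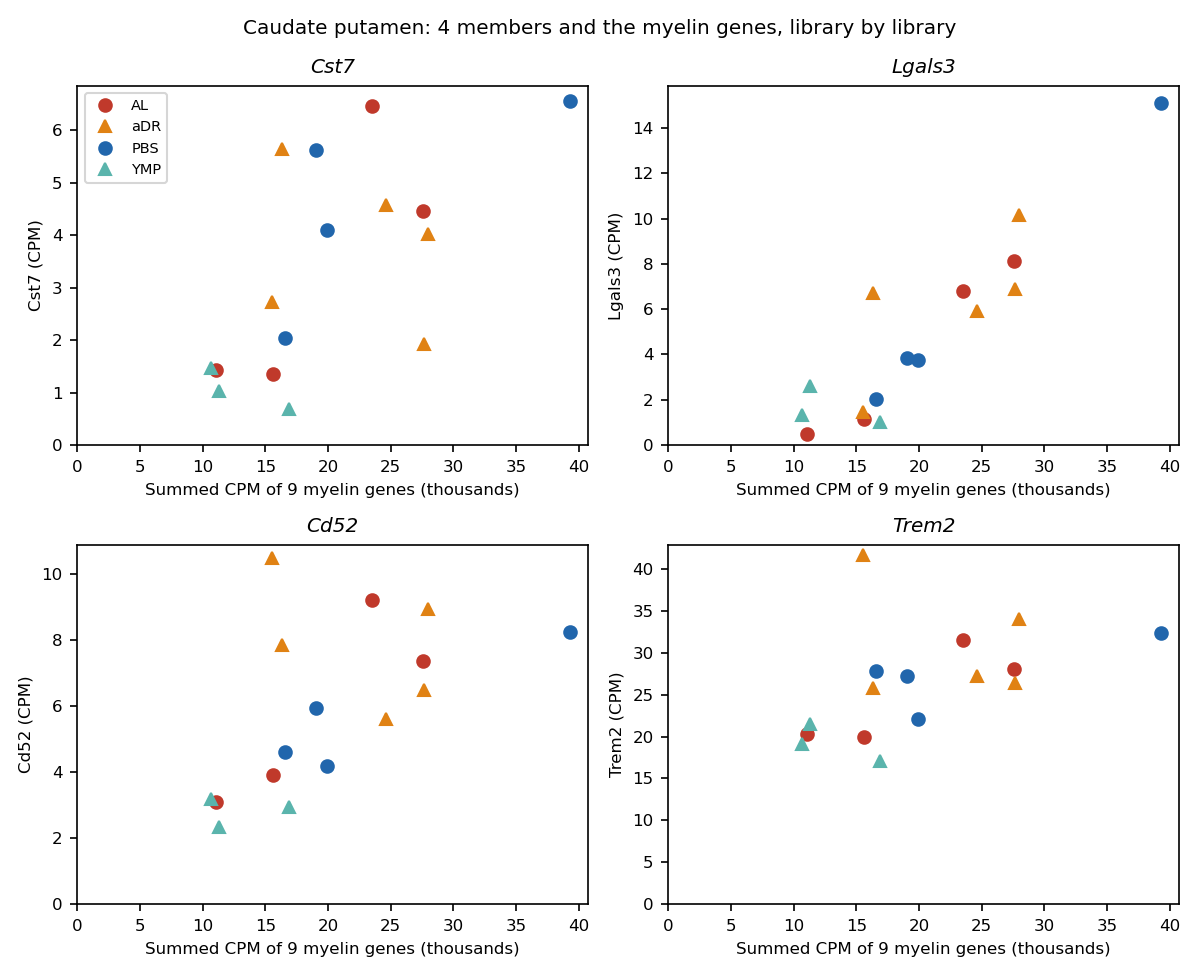
CPM of Cst7, Lgals3, Cd52 and Trem2 in each caudate putamen library of both experiments against the summed CPM of 9 myelin genes. The 3 YMP libraries lie at the low end of both axes, beside the lower AL libraries, and the PBS library of mouse 76 lies at the high end of the myelin axis.

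In medulla Cst7 was at 9.71, 6.54, 5.79 and 8.29 CPM in PBS and at 2.39, 2.15 and 5.17 CPM in YMP mice (-1.21 ± 0.32, edgeR adjusted p = 0.438). Itgax was at -1.13 ± 0.34, Cd68 at -0.57 ± 0.23, Trem2 at -0.56 ± 0.23 and Ctss at -0.46 ± 0.16 (log2, SE). Homeostatic microglia genes summed to 766 to 1046 CPM in PBS and 674 to 759 CPM in YMP mice, and myelin genes to 27300 to 32841 CPM and 22167 to 27910 CPM. In SVZ Lgals3 was at -1.57 ± 0.43 (edgeR, adjusted p = 0.187). Its values were 22.7, 12.4, 9.36 and 7.50 CPM in PBS and 4.62, 5.88 and 3.38 CPM in YMP mice. Ttr in those libraries was at 2494 to 18188 CPM in PBS and 0.107 to 3.38 CPM in YMP mice, and the 5 astrocyte genes summed to 1929 to 2290 CPM and 1563 to 1646 CPM, without overlap. Ttr was also higher in PBS libraries of corpus callosum, at 4870 CPM or more against at most 2.58 CPM in YMP libraries, and Lgals3 there was at -1.14 ± 0.46 (edgeR, adjusted p = 0.57). Without PBS mouse 84 it was at -1.47 ± 0.24 and was called (adjusted p = 0.00697). The part of choroid plexus and astrocyte RNA in these differences was not tested.

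**Figure D5:**
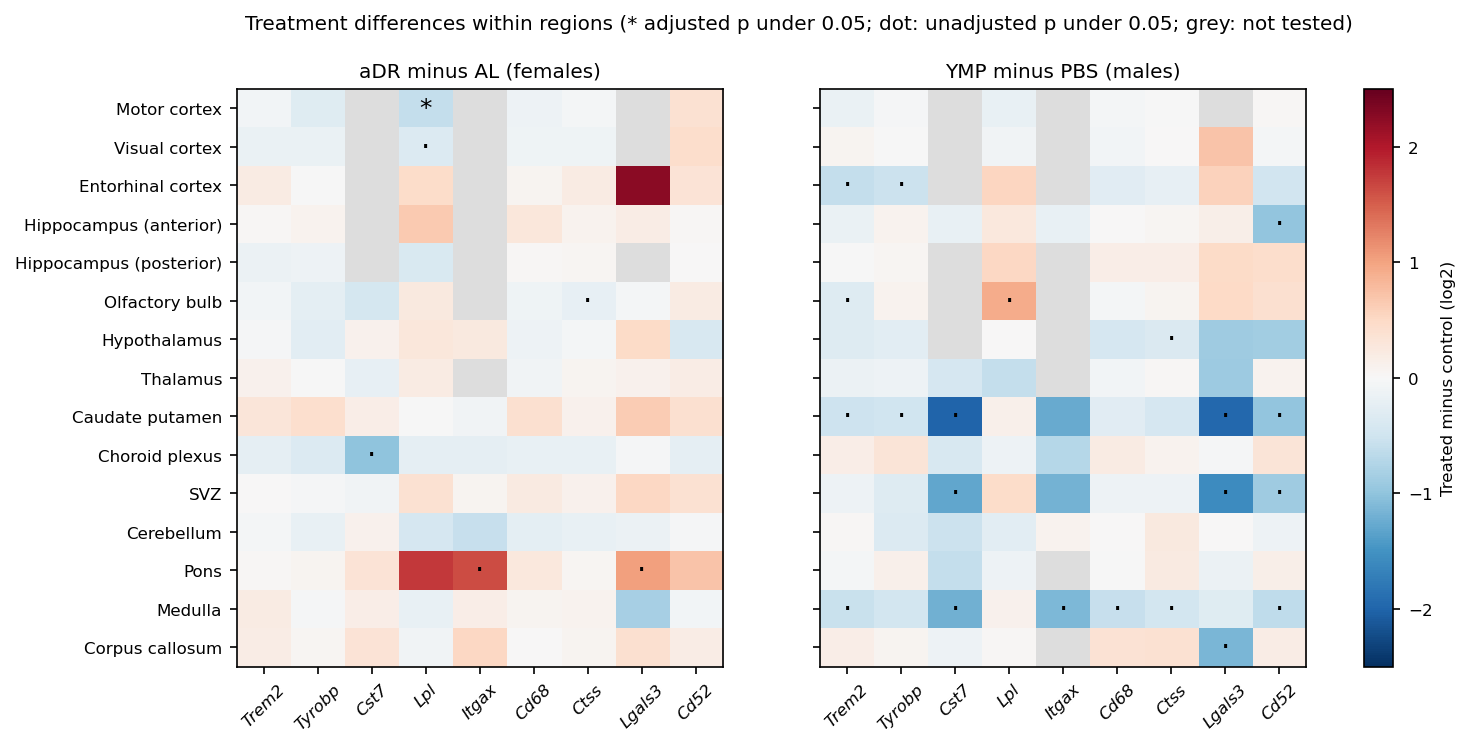
Log2 difference between treated and control mice for each gene and region, diet left and plasma right; asterisk, adjusted p under 0.05; dot, unadjusted p under 0.05; grey squares were not tested. The left panel has its asterisk at Lpl in motor cortex (-0.60); the right panel has none, with its lowest values at Cst7 (-2.0) and Lgals3 (-1.97) in caudate putamen.

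With 1 value per mouse over all regions, Cst7 in YMP minus PBS males was at -0.77 ± 0.21 (log2, SE; limma, unadjusted p = 0.00731, adjusted p = 0.449). It lay below 0 in 9 of the 9 regions where it passed the filter on low counts. These regions come from the same mice as the value over all regions, so the count is not separate evidence. The mouse values of Cst7 were 1.0 to 1.49 log2 CPM in PBS and 0.07 to 0.94 log2 CPM in YMP mice, without overlap. Cd52 was at -0.38 ± 0.13 (adjusted p = 0.501), also without overlap, Lgals3 at -0.38 ± 0.18, Itgax at -0.44 ± 0.24 and Trem2 at -0.19 ± 0.08 (adjusted p = 0.604). The remaining members were Tyrobp at -0.15 ± 0.11, Cd68 at -0.10 ± 0.10, Ctss at -0.05 ± 0.10 and Lpl at -0.01 ± 0.14. All 9 were below 0 and their median was -0.19, against -0.004 over all genes. By limma 0 of 15768 genes were called (0% of all) and 0 of 9 members, while 3 members had an unadjusted p under 0.05 (8.09% of all genes). Non-overlapping groups with the lower level in YMP mice were found for 2 members and for 5.34% of all genes. Voom with the mouse as a block called 1 member, Cst7, at -0.88 (adjusted p = 0.012), and 487 genes in all. Voom took single libraries as its units, with 1 within-mouse correlation shared by all genes. For a gene that varies more between mice than most, its p is too small, so it weighs less than the limma test. The choroid plexus genes, 10 of 10, were below 0 in the same test with a median of -1.18, and the myelin genes, 9 of 9, with a median of -0.15. Of the 30 other disease-associated microglia genes, 4 lay above 0 and 0 were called (median -0.15). Of the 17 homeostatic microglia genes, 2 lay above 0 and 0 were called (median -0.08), and 3 had groups that did not overlap, with the lower level in YMP mice. Without choroid plexus and every library over 100 CPM of Ttr, Cst7 was at -0.73 (adjusted p = 0.987) and Lgals3 at -0.12 (adjusted p = 0.987), a setting chosen after seeing the data.

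The difference between corpus callosum and grey matter was itself not called as changed by treatment. In the diet experiment 0 of 9 members were called (limma; 0% of 14856 genes), and 0 had an unadjusted p under 0.05, against 2.01% of all genes. In the plasma experiment 0 of 9 were called (0.14% of 14947 genes), with 2 YMP and 3 PBS mice. Unadjusted p under 0.05 was reached by Cd68 (0.52 ± 0.15, adjusted p = 0.43), Ctss (0.48 ± 0.17, adjusted p = 0.516) and Cd52 (0.56 ± 0.22, adjusted p = 0.572), where 8.66% of all genes reached it. An edgeR F test of whether the treatment effect differed between regions called 0 members in the diet (0.0128% of genes) and 0 in the plasma experiment (0.786% of genes). It held region and treatment but no mouse block, so libraries of the same mouse were taken as independent.

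AL females and PBS males differ in sex and in experiment at once. By limma 0 of 9 members were called between them (0.0576% of 15622 genes). The widest gap was that of Lgals3, at -0.43 ± 0.17 (females minus males, log2 and SE; unadjusted p = 0.0364, reached by 7.97% of all genes; adjusted p = 0.608), with mouse values of 1.35 to 2.17 log2 CPM in AL and 1.84 to 2.304 in PBS mice. Restricted mice are labelled DR in liver. There, where resident macrophages make several of these genes, AL mice held 74.8 ± 48.5 CPM of Ctss, 29.7 ± 15.2 of Tyrobp, 22.3 ± 8.79 of Cd52, 16.5 ± 6.83 of Lgals3 and 3.27 ± 1.57 of Trem2 (SD, n = 4). Under restriction 0 of the 8 members tested in liver were called, against 0.22% of all 11815 genes, with Tyrobp at -0.76 ± 0.31 (edgeR, adjusted p = 0.454) and Cd52 at -0.57 ± 0.26 (adjusted p = 0.53).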

How the data were processed

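RNA was isolated from homogenized tissue and made into unstranded Smart-Seq2 and Nextera XT libraries, per the labels' protocols. The authors deposited whole-number read counts per gene. Per the submitters' processing notes, Trim Galore 0.3.7, STAR 2.5.3a, DESeq2 and the GRCm38 build were used; the counting program and annotation are not given in the sources used here. Without strand, reads of overlapping antisense genes cannot be told apart. Every count column was mapped to its sample, and 0 columns were left unused.

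Fits used edgeR 4.0.16 (TMM factors, filterByExpr with a minimum count of 10 and total of 15, quasi-likelihood test) in R 4.3.3, over all genes, with Benjamini-Hochberg adjustment at 0.05. Fits of a region against grey matter held the mouse as a block, since regions with the same number come from the same mouse. The F test between regions did not. Deviations from group means correlated on average at 0.040 between libraries of 1 mouse and at -0.0049 between mice in females. In males the values were 0.072 and -0.012. Treatment across regions and its difference between corpus callosum and grey matter used limma 3.58.1 on 1 value per mouse (log2 CPM, prior count 2). DESeq2 1.42.0, other scalings, voom and leaving out single mice were alternatives. The edgeR and limma fits were run on simulated counts with known differences. The simulation held no mouse effect, so it could not check the block or the error between mice. All members are named, the 3 genes of a list with the smallest p in corpus callosum, and the 3 genes closest to a member by regional correlation; 1 gene that this rule names is not reported here. The members and lists were chosen with earlier results of these data known.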

Additional observations from a re-analysis of the deposited data

Results flagged for a closer look

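Groups of 4 to 10 mice or libraries were screened for a highest or lowest value far from the others. Of 99 groups, 11 held such a value, where chance gives about 4.95 for independent groups. The groups share mice and libraries, so an excess over chance was not tested. Of the 11, 8 came from aDR mouse 67. Its motor cortex held 1.86 CPM of Cst7 (next aDR value 0.486), 1.0 CPM of Itgax (next 0.166) and 1.14 CPM of Lgals3 (next 0.292). Its pons held 221 CPM of Lpl (next 18.6), 13.8 CPM of Itgax (next 4.25) and 16.5 CPM of Cd52 (next 8.60). Its Itgax value over all regions was 0.85 log2 CPM (next 0.03), and its Trem2 difference between corpus callosum and grey matter was 1.57 log2 (next 0.82). The remaining values were Lgals3 in caudate putamen of PBS mouse 76 (15.1 CPM, next 3.86), Lpl in medulla of PBS mouse 76 (25.2 CPM, next 16.5) and Lpl in motor cortex of AL mouse 66, which was low at 11.5 CPM (next 15.3).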

How the results depend on the processing

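The 285 alternative values of single members between corpus callosum and grey matter kept their direction and call, from 0.44 to 4.34 log2 with a highest adjusted p of 0.0207; with the 4 mice low in Ttr, 5183 (females) and 5396 (males) genes were called. Without the replicate block, 8670 and 7853 genes were called and 9 and 9 members, so the block changed no call of a member. Within 15 regions, leaving out 1 mouse gave 0 to 1 member called in each experiment and 6 to 16 with an unadjusted p under 0.05 in females, and DESeq2 called 2 in males. Over all regions in females, voom with the mouse as a replicate block called 1474 genes, leaving out choroid plexus and libraries over 100 CPM of Ttr left 60, and leaving out 1 mouse gave 14 (without mouse 66) to 163. In males voom called 487 genes and 1 member, and leaving out 1 mouse gave 0 to 1 gene. For the treatment effect of corpus callosum against grey matter in males, 13 genes were called with a prior count of 0.5, 3 with motor cortex alone and 0 to 151 without 1 mouse (151 without mouse 84). The test for differences between regions called 187 genes in males without choroid plexus.

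Signs of small values turned. Without choroid plexus, with voom, and without choroid plexus and libraries over 100 CPM of Ttr, the diet values over all regions were 0.012, 0.022 and 0.012 for Trem2, 0.044, 0.049 and 0.050 for Cst7 and 0.012, 0.033 and 0.019 for Cd68. Leaving out 1 mouse gave -0.039 to 0.034 for Trem2, -0.161 to 0.184 for Cst7, -0.077 to 0.034 for Cd68, -0.049 to 0.016 for Ctss, -0.064 to 0.086 for Lpl and -0.039 (without mouse 67) to 0.247 for Itgax. In males Lpl was 0.00016 without choroid plexus and 0.135 with voom, and leaving out 1 mouse gave -0.126 to 0.180 for Lpl and -0.174 to 0.025 for Ctss. Lpl in pons of females was -0.074 without mouse 67. Apart from the effect of the mice left out, the cause was not tested. Depth limits Itgax and Cst7 most, since many cortical libraries held at most 3 counts of them.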
